A study of Mus musculus with 12 samples.

Results

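The 47 genes described here build and run the primary cilium, the single non-motile antenna of microtubules that many resting mammalian cells carry. They were taken by symbol from lists of intraflagellar transport, BBSome, motor, transition zone, cilium membrane and basal body genes, and all 47 were found among the 25093 genes of the count table. RNA was sequenced from mouse satellite cells, the stem cells of skeletal muscle, in 12 libraries. Quiescent satellite cells (QSCs) came from uninjured hindlimb muscles and activated satellite cells (ASCs) from muscles 3 days after injury with cardiotoxin. The question put to these genes was whether their mRNAs differ after deletion of *Gli3*, which encodes a Hedgehog effector that is processed at the cilium, and between the quiescent and the activated state.

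All mice carried *Pax7*-CE, a tamoxifen-dependent Cre recombinase expressed from *Pax7*, the gene that marks satellite cells, and the R26R-YFP reporter. Mice of both genotypes received tamoxifen and were 3 to 4 months old. Control mice had intact *Gli3* (Gli3+/+), and in knockout mice (KO, Gli3Δ/Δ) a floxed exon of *Gli3* was removed in *Pax7*-expressing cells. For QSCs, cells of 2 to 3 mice were pooled into a library, whereas ASCs were taken from 1 mouse at a time. The muscles taken and the surface protein used for sorting also differed between the states (CD34 for QSCs, VCAM1 for ASCs), so that cell state and these steps cannot be told apart. Both sorts took cells with α7-integrin and left out cells with CD31, CD45, SCA1 or CD11b, which mark endothelial, blood and other interstitial cells, macrophages included. The QSC libraries are 3 control and 3 KO libraries. The labels give 3 ASC samples of either genotype. The columns of the 6 ASC libraries name the cell state and a number that could not be matched to a sample, but no genotype. They are therefore used as 1 group, numbered in column order, and no genotype comparison of ASCs was made.

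Libraries held 36886130 to 65750131 estimated counts. Values are given as CPM, counts scaled to library size after TMM normalization, and as CPM per kilobase of exon where genes are compared with each other. *Gli3* itself was at 11.3, 9.63 and 9.40 CPM in the control QSC libraries and at 9.58, 10.7 and 6.27 CPM in the KO libraries (log2 fold change −0.22 ± 0.22 SE, adjusted p = 0.916). A count over the whole gene also covers the exons outside the deleted one and therefore does not check the deletion. The study itself checked the deletion by RT-qPCR of *Gli3* in QSCs and ASCs, and by Western blot in primary myoblasts. *Pax7* was at a mean of 978 CPM in control QSCs, 977 CPM in KO QSCs and 93.1 CPM in ASCs. Of 9 satellite cell markers, 8 were called lower in ASCs, and *Myod1*, *Myog* and *Mki67* were called higher there. Each state has 1 library that stands apart. ASC replicate 6 differed from the other ASC libraries by a chi-square of 227 to 409 per gene, against 36.1 to 82.9 between the others. Its 5 macrophage markers summed to 4549 CPM, against 213 to 596 CPM in the other ASC libraries and 10.4 to 24.6 CPM in QSCs, and its 35 markers of other cell types summed to 8279.7 CPM, against 947 to 1439 CPM. Among the QSC libraries, control replicate 3 is the one in which the cilium genes were low. Results are given with and without these libraries where they rest on them.

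As background, a primary cilium grows from a basal body, a centriole docked at the plasma membrane, and the transition zone at its base acts as a gate for proteins. Behind the gate, intraflagellar transport (IFT) trains carry cargo outward with the IFT-B complex and kinesin-2 and back with the IFT-A complex and dynein-2, and the BBSome takes membrane proteins out along these trains. Hedgehog signaling runs through this organelle, and in many cell types it is taken down before division and rebuilt in the resting state.

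Many cilium genes are known targets of RFX factors, which bind the X-box, an inverted repeat in promoters. RefSeq promoter windows on GRCm38.p6, from 250 bases before to 50 bases after the transcript start, were at hand for 42 of the 47 genes. The hexamer GTTGCC, an arm of the X-box, searched on both strands, was found in the windows of 19 of these genes (45.2%), against 14.1% of all 27025 genes with a window. The whole X-box, with up to 3 bases between its arms and on either strand, was found in 6 genes (14.3%), *Bbs1*, *Ift57*, *Kif17*, *Tctn1*, *Tctn2* and *Tctn3*, against 1.75% of all genes. Both counts overlap, since an X-box can hold the hexamer. A match of letters describes the window and is no site of binding.

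Windows of 4 genes are shown because they set a match beside different outcomes between the cell states, given further on. *Ift57* and *Tctn3* hold an X-box and were not called between ASCs and QSCs, while *Mks1* and *Ift27* hold the hexamer alone and were called lower in ASCs. Other genes, not shown, went the opposite way. *Bbs1* and *Tctn1* hold an X-box and were called lower, and *Ift88* and *Kif3a* hold the hexamer alone and were not called. Each line gives the 250 bases before the transcript start, 5′ to 3′ on the strand of the gene, with the X-box or the hexamer in capitals. *Ift57* lies at chr16:49699044-49699293 on the plus strand, *Tctn3* at chr19:40612232-40612481 on the minus strand, *Mks1* at chr11:87852965-87853214 on the plus strand and *Ift27* at chr15:78174082-78174331 on the minus strand.
Ift57: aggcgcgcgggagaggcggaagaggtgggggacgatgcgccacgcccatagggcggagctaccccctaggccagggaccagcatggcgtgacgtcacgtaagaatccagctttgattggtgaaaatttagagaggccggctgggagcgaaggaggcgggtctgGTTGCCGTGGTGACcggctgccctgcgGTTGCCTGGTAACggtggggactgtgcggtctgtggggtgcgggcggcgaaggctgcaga
Tctn3: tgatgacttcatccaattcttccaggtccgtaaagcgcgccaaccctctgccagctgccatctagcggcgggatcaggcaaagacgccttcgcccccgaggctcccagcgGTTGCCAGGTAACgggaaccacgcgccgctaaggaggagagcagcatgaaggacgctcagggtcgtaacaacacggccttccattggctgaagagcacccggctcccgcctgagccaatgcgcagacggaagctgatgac
Mks1: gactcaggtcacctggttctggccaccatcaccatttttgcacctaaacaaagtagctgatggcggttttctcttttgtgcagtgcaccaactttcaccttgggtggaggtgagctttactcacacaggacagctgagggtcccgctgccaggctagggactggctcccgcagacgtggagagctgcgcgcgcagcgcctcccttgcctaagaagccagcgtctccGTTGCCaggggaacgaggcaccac
Ift27: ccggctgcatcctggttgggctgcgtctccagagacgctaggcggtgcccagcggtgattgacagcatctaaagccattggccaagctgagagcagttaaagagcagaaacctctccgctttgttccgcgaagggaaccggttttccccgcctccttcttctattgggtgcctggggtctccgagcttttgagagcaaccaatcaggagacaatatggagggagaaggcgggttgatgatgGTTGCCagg

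In QSCs the cilium genes were moderately expressed. Their mean levels ran from 0.377 to 81.9 CPM with a median of 18.98 CPM, against a median of 2.56 CPM over all genes of the table, and every gene had at least 10 counts in each library. Per kilobase of exon, the highest was *Ift20*, an IFT-B gene whose product is also found at the Golgi (ENSMUSG00000001105.15, chr11:78536361-78541737, GRCm38), at 15.6 ± 1.18 CPM per kilobase (SD, n = 6 QSC libraries). Next came the transition zone gene *Cc2d2a* at 12.02 ± 3.09, *Ift172* at 11.9 ± 1.46, the kinesin-2 subunit *Kif3a* at 11.1 ± 1.55 and the BBSome subunit *Bbs2* at 10.6 ± 1.44 CPM per kilobase, and these neighbours in the order do not differ beyond their spread. The lowest was *Kif17*, another kinesin-2 motor (ENSMUSG00000028758.12, chr4:138250435-138301967), at 0.0823 ± 0.0156 CPM per kilobase, and the next lowest was *Rpgrip1l* at 0.674 ± 0.166. The choice of gene length enters this order: with the longest transcript in place of all exon bases, *Arl3* was the highest at 22.2 and *Ift20* the next at 20.4 CPM per kilobase, while *Kif17* was again the lowest at 0.109.

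In single libraries, *Ift20* was at 24.1, 20.7 and 23.9 CPM in control QSCs, at 26.2, 24.6 and 23.46 CPM in KO QSCs and at 20.54 to 27.3 CPM in ASCs (median 23.1). All of these groups overlap. *Kif17* was at 0.275, 0.309 and 0.425 CPM in control QSCs, at 0.460, 0.381 and 0.414 CPM in KO QSCs and at 0.358 to 1.12 CPM in ASCs (median 0.557), so it was detected in every library at a low level. In ASCs the mean levels of the cilium genes ran from 0.599 to 61.9 CPM, with a median of 18.4 CPM.

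**Figure D1:**
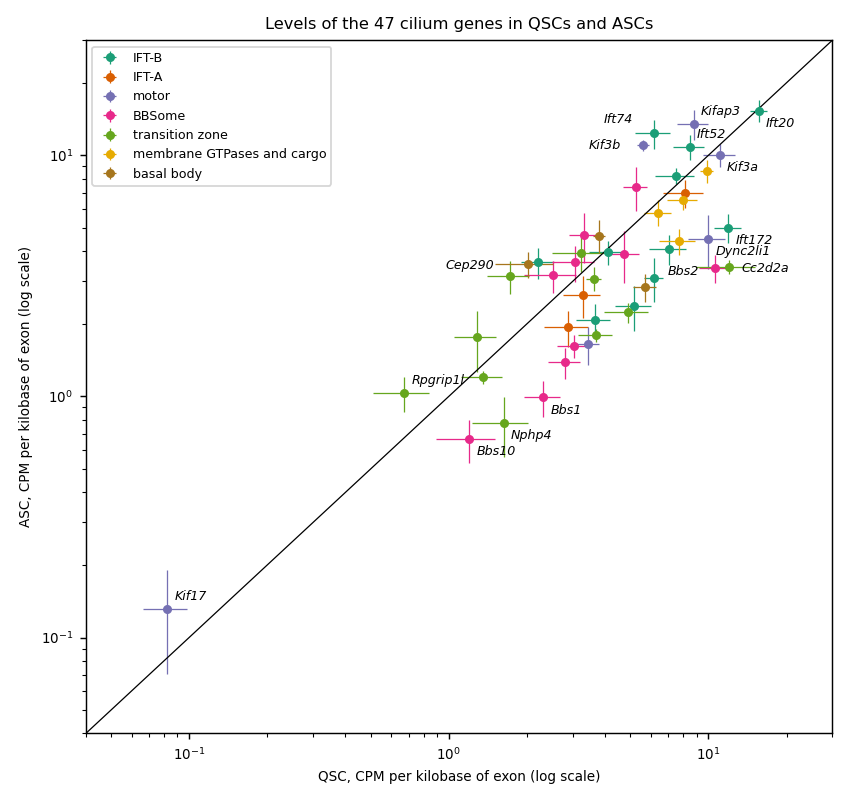
Level of each of the 47 cilium genes in ASCs (vertical) against QSCs (horizontal), as mean CPM per kilobase of exon on log axes, with lines for the SD over 6 libraries per state, colours for the roles and a diagonal at equal levels. *Ift20* is at the top right and *Kif17* at the bottom left, *Cc2d2a*, *Bbs2* and *Ift172* lie under the diagonal, and *Ift74*, *Kif3b* and *Kifap3* lie above it.

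Between the genotypes, 0 of the 47 cilium genes were called in QSCs (adjusted p under 0.05 and at least 1.2-fold, edgeR's quasi-likelihood test), where 88 of 25093 genes (0.351%) were called. DESeq2 and limma-voom also called 0 of the 47. With edgeR, only *Bbs9* had an unadjusted p under 0.05, against 7.11% of all genes, and DESeq2 and limma-voom each gave 1 such gene. The libraries of the genotypes did not overlap for 5 of the 47 genes, against 13.1% of all genes. Log2 fold changes ran from −0.38 to 0.49 with a median of 0.07, against a median of −0.03 over all genes, and 39 of 47 were under 0.25 in size.

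The 95% interval of the log2 fold change reached a median of 0.392 to either side of the estimate (0.288 to 1.03). It lay within ±1, a 2-fold change, for 45 of 47 genes, the exceptions being *Bbs10* and *Kif17*, and within ±0.5 for 16. These intervals are not adjusted for the number of genes tested, so their reach is not the smallest difference that could be called. *Bbs9*, at −0.38 with an interval of −0.69 to −0.06, was not called. With 3 libraries per genotype, differences under the reach of the interval, and also some beyond it, could go uncalled.

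**Figure D2:**
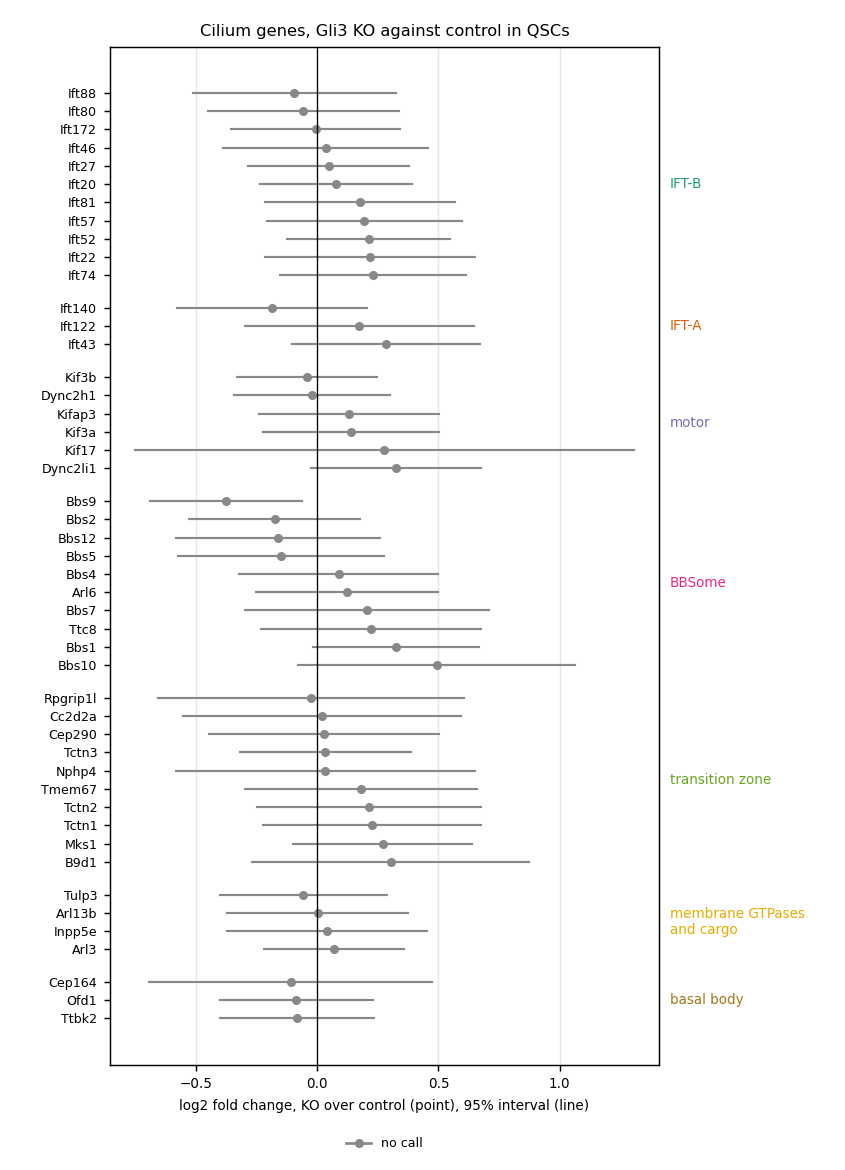
Log2 fold change of each of the 47 cilium genes in KO against control QSCs (point) with its 95% interval (line), grouped by role, for 3 libraries per genotype; no gene was called. The points lie between −0.38 (*Bbs9*) and 0.49 (*Bbs10*), and *Kif17* has the widest interval.

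*Bbs9* encodes a core subunit of the BBSome (ENSMUSG00000035919.16, chr9:22475715-22888280, GRCm38). It was at 21.4, 22.7 and 19.46 CPM in control libraries and at 16.8, 16.2 and 17.1 CPM in KO libraries. All KO values lay under all control values. The log2 fold change was −0.38 ± 0.14 (SE), with an unadjusted p of 0.0234 and an adjusted p of 0.577 from edgeR, so it was not called. Over the alternative fits its log2 fold change stayed between −0.42 and −0.32, with adjusted p-values of 0.340 to 0.995.

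The other 4 genes without overlap were higher in KO libraries, and none of them was called. *Bbs1*, the BBSome subunit that contacts the GTPase ARL6, had 15.4, 17.3 and 14.03 CPM in control and 21.4, 18.3 and 20.2 CPM in KO libraries (log2 fold change 0.32 ± 0.15 SE, adjusted p = 0.724). *Dync2li1*, the light intermediate chain of dynein-2, had 16.4, 18.52 and 14.3 CPM in control and 19.7, 20.3 and 22.9 CPM in KO libraries (0.33 ± 0.15 SE, adjusted p = 0.733). For both genes the gap between the nearest libraries of the genotypes was small beside the spread within them. *Ift22*, a GTPase of IFT-B, had 7.74, 8.42 and 5.73 CPM in control and 8.68, 8.71 and 8.60 CPM in KO libraries (0.22 ± 0.19 SE, adjusted p = 0.905). *Mks1*, a transition zone gene, had 14.3, 14.9 and 11.1 CPM in control and 15.9, 17.9 and 15.7 CPM in KO libraries (0.27 ± 0.16 SE, adjusted p = 0.838). For *Ift22* and *Mks1* too, this gap was small beside the spread of the control libraries. Without control replicate 3 the log2 fold changes were 0.27 (*Bbs1*), 0.25 (*Dync2li1*), 0.08 (*Ift22*) and 0.16 (*Mks1*).

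*Ift88* and *Arl13b*, whose proteins the study worked with, overlapped between the genotypes. *Ift88*, an IFT-B subunit that cilia need in order to form (ENSMUSG00000040040.16, chr14:57424062-57517936), was at 22, 22.1 and 14.1 CPM in control and 18.02, 19.2 and 18.48 CPM in KO libraries (log2 fold change −0.09 ± 0.18 SE, adjusted p = 0.963). *Arl13b*, a GTPase of the cilium membrane (ENSMUSG00000022911.11, chr16:62793685-62847040), was at 45.7, 43.6 and 31.48 CPM in control and 44.3, 36.8 and 42.2 CPM in KO libraries (0.00 ± 0.16 SE, adjusted p = 1.00). In both genes the lowest control value is that of replicate 3.

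Control replicate 3 was the lowest of the 6 QSC libraries for 38 of the 47 cilium genes (80.9%), whereas it was the lowest for 29.6% of the 15247 genes with a mean of at least 1 CPM. No other QSC library was the lowest for more than 2 of the 47. The 47 genes summed to 945 CPM in this library and to 1182 to 1293 CPM in the other QSC libraries. It was the lowest in all 7 roles, from the transition zone genes (147 CPM against 199 to 246 CPM) to the basal body genes (87.3 CPM against 91.3 to 114 CPM). Of the 5 lists of further cilium genes, 3 were lowest in it, among them the further transition zone genes (121 CPM against 145 to 159 CPM). The cilium disassembly genes (165 CPM against 151 to 172 CPM) and the list of RFX genes, *Foxj1* and *Mcidas* (205 CPM against 200.4 to 265 CPM) lay within the range of the other libraries. Of the 9 satellite cell markers, this library was the highest for *Itga7*, *Vcam1* and *Sdc4* (2616 CPM against 893 to 1406 CPM of *Sdc4*) and the lowest for *Myf5* (289.8 CPM against 316 to 395 CPM), *Cd34* (188 CPM against 195 to 303 CPM) and *Calcr* (125 CPM against 211 to 264 CPM). Of the 5 mural cell markers it was the highest for *Acta2* alone (335 CPM against 100.3 to 171 CPM). The part of these genes in the low cilium genes was not tested.

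The sign of the genotype median rests on this library. With it, 32 of 47 cilium genes had a positive log2 fold change and the median was 0.07. Without it, 21 of 47 were positive and the median was −0.01. In that fit edgeR called 0 of the 47, and 3 genes had an unadjusted p under 0.05, against 8.0% of all genes. These were *Bbs9* (log2 fold change −0.42 ± 0.13 SE, adjusted p = 0.428), the IFT-A gene *Ift140* (−0.33 ± 0.13 SE, adjusted p = 0.586) and *Bbs2* (−0.30 ± 0.12 SE, adjusted p = 0.593). The coefficient of variation over the 47 genes had a median of 18.1% among control libraries, 9.47% among KO libraries and 14.4% among ASC libraries.

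**Figure D3:**
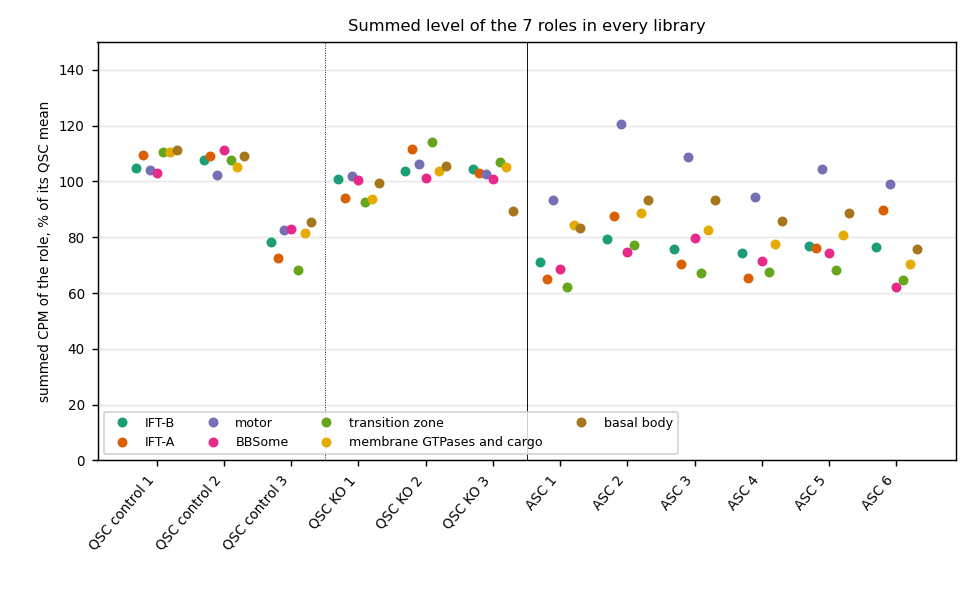
Summed CPM of the cilium genes of each role in every library, as a percentage of that role's mean over the 6 QSC libraries, with a colour for each role. QSC control replicate 3 is low in all 7 roles, and in ASCs the motor genes lie above the other roles.

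Between the states, 31 of the 47 cilium genes were called in ASCs against QSCs, 20 lower (42.6%) and 11 higher (23.4%). Over all genes 59.2% were called, 28.8% lower and 30.4% higher. Among genes with a mean of at least 1 CPM, a floor chosen after the data were seen, 73.1% were called, 34.1% lower and 38.9% higher, so that a call alone does not set the cilium genes apart. Their median log2 fold change was −0.22, against −0.03 over all genes and 0.08 over genes with a mean of at least 1 CPM. The median size was 0.66, against 1.03 and 0.92. The libraries of the states did not overlap for 23 of the 47 genes, 16 lower and 7 higher in ASCs. This was so for 39.6% of all genes and for 8341 of the 15247 genes with a mean of at least 1 CPM. A lack of overlap therefore does not set the cilium genes apart either. In bulk RNA, fewer cells with a transcript and less of it per cell cannot be told apart.

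Of the genes called lower, 12 were more than 2-fold lower, and the largest rise, that of *Ift74*, was 1.998-fold. Differences of this size were common. The median size of the log2 fold change was 1.03 over all genes and 0.92 over genes with a mean of at least 1 CPM. The 47 genes summed to 904 to 1055 CPM in ASCs and to 945 to 1293 CPM in QSCs, where control replicate 3 was the only library inside the range of the ASCs. Dissociation response genes (*Fos*, *Jun*, *Egr1*, *Atf3*) summed to 19321 to 24644 CPM in QSCs and to 729 to 2178 CPM in ASCs. All 5 macrophage markers were called higher in ASCs, although cells with CD45 or CD11b had been gated out of both sorts. The part of either in the differences described next was not tested.

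**Figure D4:**
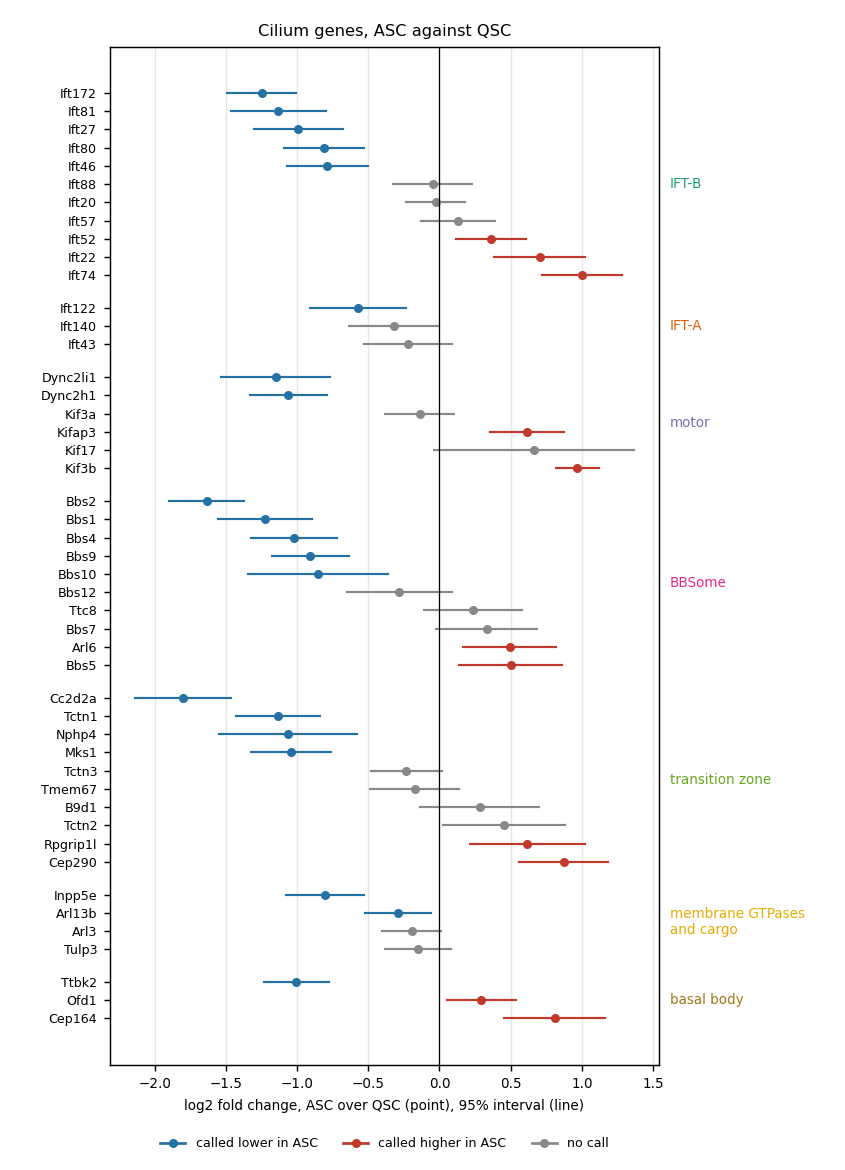
Log2 fold change of each of the 47 cilium genes in ASCs against QSCs (point) with its 95% interval (line), grouped by role, for 6 libraries per state; blue was called lower, red called higher and grey not called. The points run from −1.80 (*Cc2d2a*) to 0.999 (*Ift74*), and IFT-B, motor, BBSome, transition zone and basal body genes lie on both sides.

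Among the 11 IFT-B genes, 5 fell, 3 rose and 3 were not called. *Ift172*, a large adaptor subunit of the train (ENSMUSG00000038564.11, chr5:31253277-31291116), was at 62.4 to 90.3 CPM in QSCs (median 81.8) and at 26.96 to 39.7 CPM in ASCs (median 32.4). The states did not overlap, and the log2 fold change was −1.25 ± 0.11 SE, adjusted p = 5.40e-07. *Ift81* fell by 1.13 ± 0.15, *Ift27* by 0.99 ± 0.15, *Ift80* by 0.81 ± 0.13 and *Ift46* by 0.79 ± 0.13 (log2 fold change ± SE), each without overlap. *Ift74*, whose product pairs with IFT81 in the tubulin-binding module of the train (ENSMUSG00000028576.12, chr4:94614491-94693229), moved the other way. It was at 12.3 to 19.96 CPM in QSCs (median 16.4) and at 24.3 to 36.3 CPM in ASCs (median 34.46), a log2 fold change of 0.999 ± 0.13 SE, adjusted p = 1.78e-05. Its lowest ASC value was that of replicate 6, still above every QSC library. *Ift22* rose by 0.70 ± 0.15 without overlap and *Ift52* by 0.36 ± 0.12 with overlapping libraries. *Ift20* (−0.03, 95% interval −0.23 to 0.18), *Ift88* (−0.05, −0.32 to 0.23) and *Ift57* (0.13, −0.13 to 0.39) were not called, and their intervals lie within ±0.5.

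Of the 3 IFT-A genes, which serve return transport and the entry of membrane proteins, *Ift122* fell by 0.57 ± 0.16 (log2 fold change ± SE, adjusted p = 0.00635) with overlapping libraries. *Ift43* (−0.22 ± 0.14) and *Ift140* (−0.32 ± 0.15) were not called. *Ift140* was highest in ASC replicate 6, at 29.1 CPM, and was called without that library (log2 fold change −0.45, adjusted p = 0.00908) and without control replicate 3 (−0.38, adjusted p = 0.0395).

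Of the motor genes, both subunits of dynein-2, the return motor, fell. *Dync2h1*, the heavy chain (ENSMUSG00000047193.16, chr9:6928503-7184446), was at 47.3 to 62.02 CPM in QSCs (median 58.7) and at 19.45 to 32.7 CPM in ASCs (median 27.1), a log2 fold change of −1.06 ± 0.13 SE, adjusted p = 7.18e-06. *Dync2li1* fell by 1.15 ± 0.18 (SE), and neither gene overlapped between the states. Of kinesin-2, the outward motor, *Kif3b* (ENSMUSG00000027475.9, chr2:153291413-153333390) was at 29.96 to 33.8 CPM in QSCs (median 31.7) and at 57.2 to 65.97 CPM in ASCs (median 61.53). The states lay far apart beside a small spread, with a log2 fold change of 0.97 ± 0.07 SE, adjusted p = 6.73e-08. Its accessory subunit *Kifap3* rose by 0.62 ± 0.12 (SE) without overlap, whereas the partner motor *Kif3a* was not called (−0.14, 95% interval −0.38 to 0.10). Kinesin-2 also carries cargo outside cilia. *Kif17* was not called (0.66, −0.04 to 1.37), and its exons overlap those of *Sh2d5* on the same strand, so its count is uncertain.

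Among the 10 genes of the BBSome and its partners, 5 fell and 2 rose. *Bbs2* (ENSMUSG00000031755.6, chr8:94067954-94098928) was at 29.7 to 42.9 CPM in QSCs (median 33.9) and at 9.39 to 13.8 CPM in ASCs (median 11.2), 3.10-fold lower, with a log2 fold change of −1.63 ± 0.12 SE, adjusted p = 8.90e-08. This was the largest difference of the group. *Bbs1* fell by 1.22 ± 0.15, *Bbs4* by 1.02 ± 0.14 and *Bbs9* by 0.91 ± 0.13 (log2 fold change ± SE), each without overlap between the states. *Bbs10*, a chaperonin-like gene needed for BBSome assembly, was at 2.57 to 4.99 CPM in QSCs (median 3.81) and at 1.44 to 2.70 CPM in ASCs (median 1.94), and fell by 0.85 ± 0.23. *Bbs5*, a BBSome subunit that binds phosphoinositides, rose by 0.50 ± 0.17, and *Arl6*, the GTPase that brings the BBSome to membranes, by 0.49 ± 0.15, both with overlapping libraries. The rise of *Bbs5* was not called without ASC replicate 3 (0.40, adjusted p = 0.0537). *Bbs7*, *Ttc8* and *Bbs12* were not called, at 0.33, 0.23 and −0.28, but *Bbs7* was called without ASC replicate 6 (0.38, adjusted p = 0.0366) or KO replicate 2 (0.44, adjusted p = 0.0339).

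The transition zone held the largest difference of the 47 genes. *Cc2d2a*, a membrane-associated part of the gate (ENSMUSG00000039765.15, chr5:43662346-43740972), was at 54.1 to 107 CPM in QSCs (median 84.54) and at 21.48 to 25.4 CPM in ASCs (median 23.49). It varied widely among QSC libraries and little among ASC libraries, and was 3.49-fold lower in ASCs (log2 fold change −1.80 ± 0.16 SE, adjusted p = 3.73e-07). *Tctn1* fell by 1.13 ± 0.14 and *Mks1* by 1.04 ± 0.13 (SE) without overlap, and *Nphp4* by 1.06 ± 0.23 with overlap. *Cep290*, which links the membrane to the microtubules of the gate (ENSMUSG00000019971.10, chr10:100487558-100574840), rose. It was at 13.4 to 24.4 CPM in QSCs (median 20.7) and at 31.6 to 44.03 CPM in ASCs (median 34.04), a log2 fold change of 0.87 ± 0.14 SE, adjusted p = 1.50e-04. *Rpgrip1l*, a scaffold of the gate, rose by 0.62 ± 0.19 without overlap. *Tctn2*, *Tctn3*, *Tmem67* and *B9d1* were not called, at 0.45, −0.23, −0.17 and 0.28. Of these, *Tctn2* (0.50, adjusted p = 0.0362) and *Tctn3* (−0.31, adjusted p = 0.0255) were called without ASC replicate 6, *Tctn2* also without ASC replicate 4 (0.59, adjusted p = 0.0165) and *Tmem67* without control replicate 3 (−0.28, adjusted p = 0.0473). With all libraries kept, *Tctn2* was called by DESeq2 (adjusted p = 0.0455) and limma-voom (adjusted p = 0.0298), and *Tctn3* by limma-voom (adjusted p = 0.0261).

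Among the 4 membrane genes, *Inpp5e*, a phosphoinositide phosphatase of the cilium membrane (ENSMUSG00000026925.16, chr2:26396249-26409203), was at 24.4 to 37 CPM in QSCs (median 35.8) and at 16.50 to 22.3 CPM in ASCs (median 18.8), a log2 fold change of −0.80 ± 0.13 SE, adjusted p = 1.04e-04. *Arl13b* fell by 0.29 ± 0.11 (adjusted p = 0.0325), from 31.48 to 45.7 CPM in QSCs (median 42.9) to 27.7 to 35.9 CPM in ASCs (median 34.4). This small difference was not called when control replicate 1 or 2, KO replicate 1 or 3 or ASC replicate 4 was left out (adjusted p of 0.0575 to 0.107). *Arl3*, whose product releases lipid-anchored cargo inside the cilium, and *Tulp3*, whose product brings receptors in together with IFT-A, were not called (−0.19 and −0.15).

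The 3 basal body genes went different ways. *Ttbk2*, the kinase that starts cilium growth (ENSMUSG00000090100.7, chr2:120732816-120850604), was at 56.4 to 72.6 CPM in QSCs (median 66.8) and at 25.9 to 36.7 CPM in ASCs (median 33.8), a log2 fold change of −1.01 ± 0.11 SE, adjusted p = 2.40e-06. Its exons overlap those of *Cdan1* on the same strand. *Cep164*, the distal appendage gene whose product recruits this kinase (ENSMUSG00000043987.18, chr9:45766946-45828691), was at 13.3 to 25.1 CPM in QSCs (median 21.3) and at 30.2 to 40.9 CPM in ASCs (median 35.6), a log2 fold change of 0.81 ± 0.16 SE, adjusted p = 7.80e-04. Neither gene overlapped between the states. *Ofd1* rose by 0.29 ± 0.11 (adjusted p = 0.0383), and this call did not hold when control replicate 1 or 3, any KO replicate, or ASC replicate 1, 2, 3 or 4 was left out (log2 fold change of 0.24 to 0.30).

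**Figure D5:**
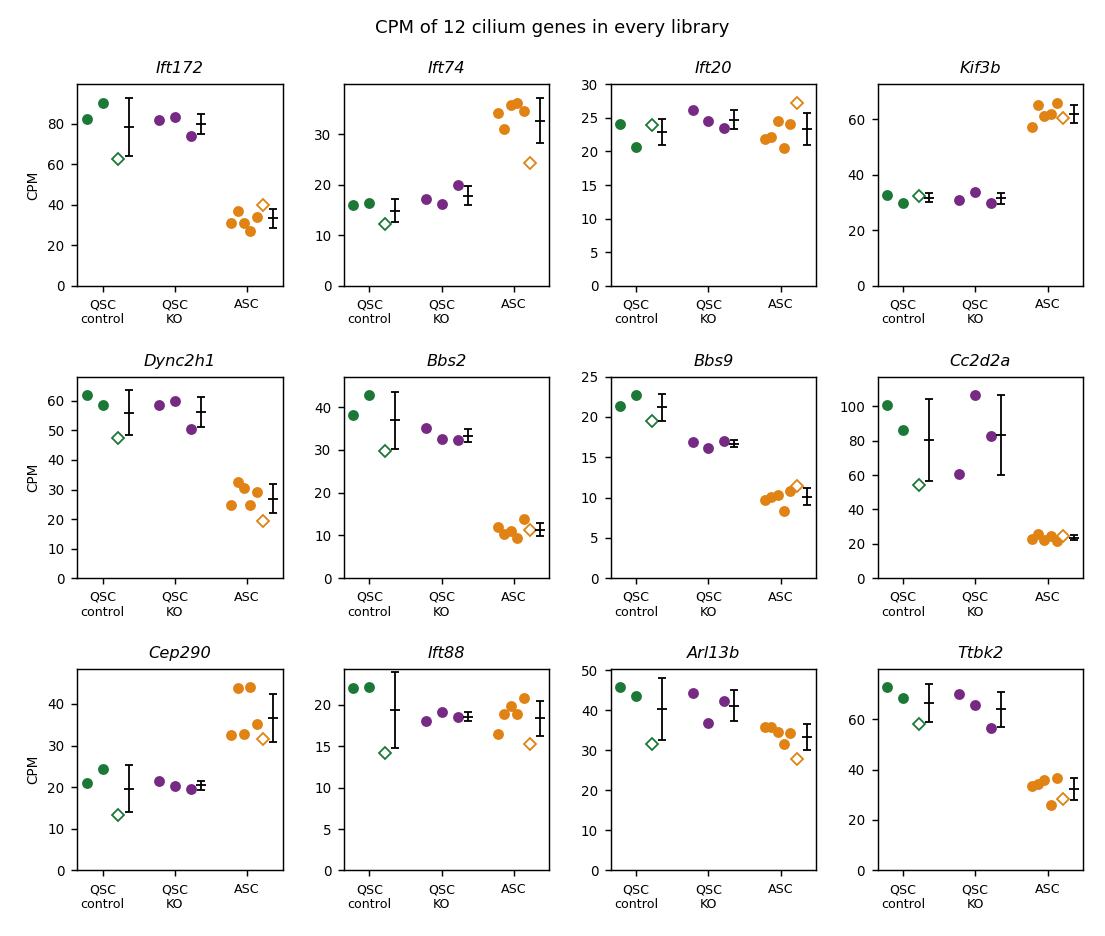
CPM of 12 cilium genes in every library of control QSCs, KO QSCs and ASCs, on linear axes from 0, where points are libraries, open diamonds mark QSC control replicate 3 and ASC replicate 6, and black bars are the mean ± SD. *Ift172*, *Dync2h1*, *Bbs2*, *Bbs9*, *Cc2d2a* and *Ttbk2* are lower in all 6 ASC libraries than in any QSC library, *Ift74*, *Kif3b* and *Cep290* are higher, and among these 12 genes only *Bbs9* has control and KO points that do not overlap.

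Without ASC replicate 6, 35 of 47 cilium genes were called, 22 lower and 13 higher, against 60.6% of all genes. Without QSC control replicate 3, 32 were called, 22 lower and 10 higher, against 57.8% of all genes. Over the main and all 20 alternative fits, 23 of the 47 genes were called in each, 17 lower and 6 higher, and 11 were called in no fit. The share of all genes called in every fit is not given here, so these counts do not set the cilium genes apart.

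The outcomes between the states were set beside the promoter letters. Of the 16 genes with a window that fell, 8 held the hexamer and 2 the X-box. Of the 11 that rose, 2 held the hexamer and 0 the X-box, and of the 15 not called, 9 held the hexamer and 4 the X-box. These counts have no test. A list of possible regulators of cilium genes took RFX genes by family name, with *Foxj1* and *Mcidas*. Not every RFX factor acts on cilium genes, and no such role is claimed here for *Rfx5* or *Rfx7*. Of these 8 genes, 0 were called between the genotypes and 2 were lower in ASCs, *Rfx3* (log2 fold change −0.48 ± 0.15 SE, adjusted p = 0.0139) and *Rfx5* (−1.02 ± 0.13 SE, adjusted p = 1.28e-05). The highest of them, *Rfx7*, was not called (0.30). Between the genotypes, *Rfx1* (−0.42 ± 0.16 SE, adjusted p = 0.604) and *Rfx2* (−0.70 ± 0.27 SE, adjusted p = 0.619) had an unadjusted p under 0.05.

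Of 65 further cilium genes measured, the RFX group and the disassembly genes included, 30 rose (46.2%) and 10 fell (15.4%) in ASCs. Their median log2 fold change was 0.35. Over all genes 30.4% were called higher and 28.8% lower, and among genes with a mean of at least 1 CPM 38.9% and 34.1%. Of the 30 rises, 9 were among the 10 disassembly genes described below, several of which are also genes of cell division. Of the 19 other IFT, BBSome and motor genes, 8 rose and 2 fell. They include *Wdr35*, of IFT-A (0.85 ± 0.14, log2 fold change ± SE), and *Dynll1* (1.35 ± 0.12) and *Dynlrb1* (0.70 ± 0.089), light chains that dynein-2 shares with cytoplasmic dynein. *Ttc30b* (−1.499 ± 0.19) and *Ttc30a1* (0.93 ± 0.21) are near-identical copies, so the split of reads between them is uncertain. Of the 12 other transition zone genes, 4 rose, led by *Tmem138* (1.90 ± 0.16), *Cep41* (1.45 ± 0.14) and *Tmem216* (1.25 ± 0.15), and 3 fell, among them *Tmem231* (−1.34 ± 0.23) and *Iqcb1* (−1.27 ± 0.13). Of the 16 distal appendage and basal body genes, 9 rose and 2 fell, *Cep97* (−1.04 ± 0.17), whose product helps to cap centrioles, and the centriolar satellite gene *Pcm1* (−0.42 ± 0.084).

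Of 10 genes that act in cilium disassembly or centriole duplication, 9 rose and *Tchp* fell (−0.67 ± 0.095, log2 fold change ± SE). *Aurka*, a mitotic kinase that starts cilium disassembly, was at a mean of 1.07 CPM in control QSCs, 0.702 CPM in KO QSCs and 58.02 CPM in ASCs. *Nek2*, *Plk1* and *Plk4* rose by 7.25 ± 0.66, 6.01 ± 0.36 and 3.78 ± 0.19 on the log2 scale. All of these are also genes of cell division, like the proliferation marker *Mki67*, which rose by 6.67 ± 0.46. *Hdac6*, a tubulin deacetylase of the same pathway, rose by 0.30 ± 0.098 (adjusted p = 0.0165). In the genotype comparison edgeR called 0 of the 65 further genes, and besides *Rfx1* and *Rfx2* the genes with an unadjusted p under 0.05 were *Nedd9* (−0.68 ± 0.28 SE, adjusted p = 0.668) and *Sclt1* (0.51 ± 0.20 SE, adjusted p = 0.643). Of 10 motile cilium genes, 4 fell in ASCs. The highest of them was *Ccdc39*, at a mean of 12.2 CPM in control QSCs, 12.8 CPM in KO QSCs and 2.10 CPM in ASCs.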

How the data were processed

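RNA from 12 satellite cell libraries (QSC control, QSC KO and ASC) was sequenced after poly(A) selection with a protocol that keeps strand. The authors quantified reads with Salmon on GRCm38, summed transcripts to genes with tximport and removed genes with few reads, and they deposited estimated counts per gene (44.3 to 50.96% of values per library are not whole numbers). These were rounded. The deposited tables of comparisons hold means, shrunken log2 fold changes, errors and p-values, and were not used. Genes were tested with edgeR 4.0.16 (R 4.3.3, TMM, quasi-likelihood, Benjamini-Hochberg over 25093 genes), KO against control in 6 QSC libraries, and ASC against QSC in 12 without genotype. A call needed an adjusted p under 0.05 and a fold of 1.2. The SE is the log2 fold change divided by the square root of F. Alternatives used DESeq2 1.42.0, limma 3.58.1 (voom with quality weights), the size factors of DESeq2, filters on low counts, a replicate block and each library left out. Positions are from GENCODE release 21, which gives the same ID version for 44 of 47 genes. In all, 12 of the 47 overlap exons of another gene, 3 on the same strand. All 47 are named by role; values per library are given for genes with an unadjusted p under 0.05 or no overlap between genotypes, the highest and lowest per kilobase, *Ift88* and *Arl13b*. The genes and lists were chosen with earlier results of these data known. The scripts were tested on simulated data. The values of 1 gene of the further lists are not reported here.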

Additional observations from a re-analysis of the deposited data

Results flagged for a closer look

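In 7 cases a library lay far from the other 5 of its state, with a gap to its nearest neighbour that is large beside the whole range. How many such cases would arise by chance was not tested. Many genes in both states were looked at, and a library can be low for many genes at once, so the number of cases is no result in itself. QSC control replicate 3 was the low library in 5 of them. It had 5.73 CPM of *Ift22* (next lowest 7.74 CPM), 18.5 CPM of *Ift122* (next 29.6), 25.4 CPM of *Kifap3* (next 36.5), 8.79 CPM of *Arl6* (next 11) and 6.82 CPM of *Tmem67* (next 10.6). In ASCs, replicate 5 was high for *Kif17*, at 1.12 CPM (next highest 0.602 CPM), and replicate 4 for *Ofd1*, at 26.9 CPM (next highest 20.5 CPM).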

How the results depend on the processing

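The count of 0 cilium genes called between the genotypes held in every alternative. The count over all genes moved from 88 (47 higher, 41 lower) to 384 with DESeq2 (192 higher, 192 lower) and to 48 with at least 10 counts in every library (22 higher, 26 lower), and to 58 to 103 with each library left out (32 to 50 higher, 26 to 53 lower), the lowest without KO replicate 3; the cause was not tested. With the replicate block, 79 genes were called (41 higher, 38 lower) and 0 cilium genes. Same-numbered libraries did not deviate together (correlations of −0.18, −0.07 and −0.05), so the numbers were not taken as pairs. No paired analysis was possible between the states, since the numbers in the ASC column names could not be matched to samples. QSC libraries were also pools of mice, and ASC libraries were not.

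Between the genotypes, *Arl13b* changed sign with limma-voom (−0.10), with at least 10 counts in every library (−0.000286) and with libraries left out (−0.134 to 0.0889), and *Ift88* ran from −0.264 to 0.0152. Between the states, leaving out libraries moved *Ift88* from −0.125 to 0.0377 and *Ift20* from −0.104 to 0.0477, and *Ift20* was at 0.0227 against control QSCs alone. None of these was called in any fit. With control QSCs alone 24 cilium genes were called (17 lower, 7 higher), against 12291 of all 25093 genes. With KO QSCs alone 26 were called (19 lower, 7 higher), against 12194 of all genes. Both fits have fewer libraries and were chosen after seeing the data. With each library left out, 29 to 35 cilium genes were called, against 13918 to 15197 of all genes. Besides *Arl13b*, *Bbs5* and *Ofd1*, calls were lost for *Ift122*, *Bbs10*, *Arl6* and *Rpgrip1l* with control QSCs alone (edgeR adjusted p of 0.0529 to 0.11). With KO QSCs alone, those of *Arl6* and *Ift52* were also lost (edgeR adjusted p of 0.114 and 0.156). With all libraries kept, DESeq2 called 32 cilium genes (20 lower, 12 higher), against 15069 of all genes. A fit with limma-voom called 35 (22 lower, 13 higher), against 15952 of all genes. *Tctn2* was called by both tools, and *Tctn3*, *Bbs7* and *Ift140* by limma-voom (adjusted p of 0.00523 to 0.0372). Size factors of DESeq2 moved the median of all genes by 0.0061 and 0.01 (log2). Intervals cover the spread between these libraries only.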
